A study of Homo sapiens with 13 samples.

Results

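Trimethylation of histone H3 at lysine 4 (H3K4me3) was described here in the human esophageal epithelial line TE-7, which is an established cell line, with and without the type 2 cytokine interleukin-13 (IL-13). Members were the H3K4me3 peaks that the authors listed at transcription starts and whose level in the higher library was at least 30. That left 9906 of the 13221 listed peaks, at the starts of 11328 genes, out of 34314 peaks past the same level in the 3 histone marks of the series. H3K4me3 was measured by chromatin immunoprecipitation and sequencing (ChIP-seq) of cells fixed with formaldehyde, using the Abcam antibody ab8580. There were 2 libraries, 1 from untreated cells and 1 from cells given IL-13 at 100 ng/ml for 6 hr. H3K9Ac and H3K27Ac, which are acetylation marks of active promoters and enhancers, were profiled in the same design, and RNA of untreated and IL-13-treated cells at 6 hr was sequenced from 1 library each. All samples came from the single TE-7 line grown in RPMI medium with 5% FCS, so nothing here speaks for other esophageal cells or for tissue.

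H3K4me3 is written mainly by the SET1 and MLL (KMT2) complexes and marks the nucleosomes that flank the starts of active genes. It is read by PHD-finger proteins such as TAF3 of the general transcription machinery and ING-family proteins, and removed by the KDM5 demethylases. The CXXC-domain subunits of the writers bind unmethylated CpG dinucleotides, and the mark is typically high at CpG-rich promoters. IL-13 acts on epithelial cells through the IL-4 receptor alpha chain and IL-13 receptor alpha 1, JAK kinases and STAT6, and induces chemokines such as CCL26 (eotaxin-3), which attracts eosinophils.

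For each peak the authors deposited M, the log2 ratio of library 1 over library 2 after rescaling, and A, the mean log2 level of both libraries. From these the level of each library was computed, in rescaled reads per peak. Neither the headers nor the labels state whether library 1 or library 2 was the treated one. The libraries are therefore named by number, the numbering need not be the same in the tables of the 3 marks, and no difference is called an effect of IL-13. With 1 library of each kind there is no spread between replicates to set a difference against, so no p-value is given and every difference below is a description of these libraries. More cells with the mark at a promoter and more mark per cell cannot be told apart in such bulk samples. The depth of the ChIP-seq libraries is not given in the sources used here. Pairs of H3K4me3 levels are written with library 1 first, and pairs of RNA values with the untreated library first.

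The promoter sequences of 7 genes are shown first because they span the range of promoters that the results turn on. Each is the 250 bases before the RefSeq start (GRCh38.p14), 5′ to 3′ on the gene's strand. In EN2, TPPP, NXT2, CCL26, MMP7 and FGFBP1 capitals mark CpG dinucleotides, and in CISH they mark matches to TTCNNNGAA, the palindrome bound by activated STAT proteins. The distance from this start to the far end of the gene equalled that of the start in the deposited tables within 100 bases for all 7. EN2 and TPPP are developmental and neural genes whose peaks were higher in library 2, and lie at chr7:155457879-155458128 (plus strand) and chr5:693353-693602 (minus strand). NXT2, an mRNA export factor at chrX:109535574-109535823 (plus strand), had a peak called in library 1 only. CISH, a STAT-induced feedback inhibitor at chr3:50611775-50612024 (minus strand), had more RNA with IL-13 and a peak. CCL26 at chr7:75789747-75789996 (minus strand) and MMP7, a matrix metalloproteinase, at chr11:102530748-102530997 (minus strand) had more RNA with IL-13 and no listed H3K4me3 peak. FGFBP1, a carrier of fibroblast growth factors at chr4:15938741-15938990 (minus strand), had abundant RNA and a peak under the level of 30.
EN2: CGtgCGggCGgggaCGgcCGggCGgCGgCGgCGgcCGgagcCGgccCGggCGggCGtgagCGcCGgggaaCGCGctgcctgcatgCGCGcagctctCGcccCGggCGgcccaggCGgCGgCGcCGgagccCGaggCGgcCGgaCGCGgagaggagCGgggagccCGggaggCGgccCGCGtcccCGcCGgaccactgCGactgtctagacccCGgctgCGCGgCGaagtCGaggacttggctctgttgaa
TPPP: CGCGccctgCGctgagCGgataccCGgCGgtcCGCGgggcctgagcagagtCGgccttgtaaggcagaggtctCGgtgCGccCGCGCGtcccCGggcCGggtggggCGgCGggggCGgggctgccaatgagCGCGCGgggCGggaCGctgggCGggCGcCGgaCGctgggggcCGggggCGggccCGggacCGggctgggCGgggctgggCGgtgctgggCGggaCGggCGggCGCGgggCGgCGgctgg
NXT2: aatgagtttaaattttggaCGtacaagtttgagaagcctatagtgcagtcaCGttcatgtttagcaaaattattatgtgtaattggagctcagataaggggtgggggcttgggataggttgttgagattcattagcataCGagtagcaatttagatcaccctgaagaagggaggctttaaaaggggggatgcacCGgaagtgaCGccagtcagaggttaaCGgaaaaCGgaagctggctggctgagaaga
CISH: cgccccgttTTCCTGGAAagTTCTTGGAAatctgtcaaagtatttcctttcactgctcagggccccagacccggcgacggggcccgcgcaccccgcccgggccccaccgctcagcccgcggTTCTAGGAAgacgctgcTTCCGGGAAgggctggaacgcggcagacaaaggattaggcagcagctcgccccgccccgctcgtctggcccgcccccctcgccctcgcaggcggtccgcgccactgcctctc
CCL26: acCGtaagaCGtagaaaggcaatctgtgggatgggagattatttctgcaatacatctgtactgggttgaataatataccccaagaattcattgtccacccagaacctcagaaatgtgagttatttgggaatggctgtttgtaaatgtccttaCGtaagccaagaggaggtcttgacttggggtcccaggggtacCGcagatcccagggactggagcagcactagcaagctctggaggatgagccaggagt
MMP7: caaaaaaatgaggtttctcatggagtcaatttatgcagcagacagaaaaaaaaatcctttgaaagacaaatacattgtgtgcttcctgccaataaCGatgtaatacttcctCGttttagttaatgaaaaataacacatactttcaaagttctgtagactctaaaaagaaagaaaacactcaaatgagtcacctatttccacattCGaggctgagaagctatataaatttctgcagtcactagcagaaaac
FGFBP1: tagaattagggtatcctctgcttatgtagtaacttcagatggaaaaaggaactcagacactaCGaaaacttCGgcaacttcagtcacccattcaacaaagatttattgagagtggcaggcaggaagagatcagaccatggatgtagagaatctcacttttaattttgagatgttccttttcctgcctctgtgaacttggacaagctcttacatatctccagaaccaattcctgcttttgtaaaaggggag

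Over the 300 bases from 250 before to 50 after the start, EN2 held 50 CpG and TPPP 51, against a median of 27 (quartiles 20 and 35) in the 8884 marked genes with a promoter sequence. NXT2 held 8, CCL26 and MMP7 4 each, and FGFBP1 3. CISH held 33 CpG and 4 matches to TTCNNNGAA, beginning 241, 230, 129 and 112 bases before the start. The same palindrome with a spacer of 4 bases, which STAT6 prefers, had no match in these letters of CISH, and was found in 6.37% of all promoters and 4.34% of those of marked genes. The motif TTCNNNGAA, which is its own reverse complement, was found in 7.88% of the 27305 promoters in the table and in 6.04% of those of marked genes. SOCS1, LURAP1L, SOX2, CCL26, SERPINB3, SERPINB4 and MMP7, which also had more RNA with IL-13, had no match to either palindrome. Their starts were the same within 100 bases too. LIFR and SGK1 had 1 match each, but at RefSeq starts other than those of their peaks. A match is a description of the sequence and not a binding site.

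Most H3K4me3 peaks were common to both libraries. Of the 9906 peaks, 9120 (92.1%) had been called in both, 439 (4.43%) in library 1 only and 347 (3.5%) in library 2 only. The median level was 76.1, the middle 80% of peaks lay between 37.7 and 153, and the highest reached 901, at EGFR. The lowest peak kept had a level of 30.06 and the highest left out 29.96. Peaks left out were common in 29.4% of cases.

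At least 2-fold differences (M of at least 1 in size) were found at 596 peaks higher in library 1 (6.02%) and 477 peaks higher in library 2 (4.82%). The median M over all 9906 peaks was 0.07, with quartiles of -0.31 and 0.46. When M was centred on that median the counts became 500 and 584, so which library held more of the higher peaks depends on the scaling. The share that differed 2-fold fell with level. It was 21.4% of 2319 peaks from 30 to 50, 9.61% of 4412 from 50 to 100, 5.05% of 2811 from 100 to 200, 3.16% of 348 from 200 to 400, and 0 of the 16 peaks of 400 or more. Counting error alone gives a 95% Poisson interval of 19.4 to 41.6 around 29 reads, 59 to 94 around 75 and 267 to 336 around 300, and it does not cover variation between cultures.

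**Figure D1:**
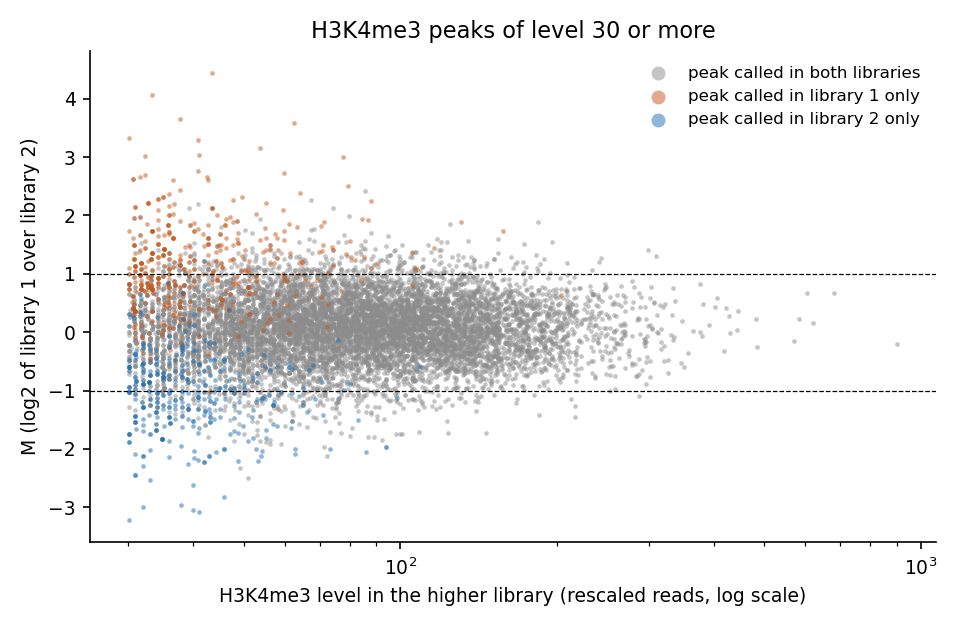
Each point is 1 H3K4me3 peak of level 30 or more, with its level in the higher library on a log axis and M, the log2 ratio of library 1 over library 2, on the other. Gray points were called in both libraries, orange points in library 1 only and blue points in library 2 only, and dashed lines mark 2-fold; the spread of M narrows as the level rises, and none of the 16 peaks of 400 or more lies past 2-fold.

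The 15 peaks of highest M had all been called in library 1 only. ELF1, an ETS-family transcription factor (chr13:41593508, hg19), stood at 43.4 in library 1 and 2 in library 2, and a start of DST, which encodes dystonin of the hemidesmosome (chr6:56507694), at 37.7 and 3. Low levels of library 2 are mostly whole numbers, as read counts are, and 2 reads carry a 95% counting interval of 0.242 to 7.22, so no fold is given for these peaks. ADAMTS1, a secreted metalloproteinase (chr21:28217728), stood at 40.8 and 4.14. NXT2, whose promoter is printed above, had its peak listed for starts from chrX:108779010 to 108780347 and stood at 41.1 and 4.99. At 10 of the 15, another H3K4me3 peak was listed at the same start, and at 9 that peak was the higher one. INSIG2, which holds the sterol-sensing SCAP complex in the endoplasmic reticulum (chr2:118846050), had such a peak at 33.4 and 2 beside a common peak at 89 and 76.9. PRMT3, an arginine methyltransferase of ribosomal protein S2 (chr11:20409076), had 62.5 and 5.19 beside a common peak at 105 and 127. FBXW7, the substrate receptor of a ubiquitin ligase (chr4:153456185), had 77.7 and 9.71 beside 113 and 151. At these 3 genes the main peak differed by under 2-fold while a smaller peak listed at the same start had the large ratio. The remaining 8 of the 15 stood between 30.1 and 59.9 in library 1 and between 3.01 and 9.03 in library 2.

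Of the 15 reported peaks of lowest M, 13 had been called in library 2 only, and 4 lay beside a higher peak. RASIP1, an endothelial Ras-interacting protein (chr19:49243970), stood at 3.23 in library 1 and 30.1 in library 2. EN2, a homeobox factor of the midbrain and hindbrain (chr7:155250824), stood at 4.86 and 41.1, and SLC9A2, a sodium-proton exchanger (chr2:103236166), at 4.86 and 39.9. The start shared by ARHGEF26, a guanine nucleotide exchange factor, and its antisense gene (starts chr3:153838792 and 153839149) stood at 6.5 and 45.9. TPPP, a tubulin polymerization-promoting protein of oligodendrocytes (chr5:693510), had 2 peaks, and both were higher in library 2, at 39.9 against 6.5 and 42.1 against 14. Of the 15, 2 were common peaks: NXPH4, a neurexophilin (chr12:57610578), at 9 and 50.9, and RIMS3, a synaptic active-zone protein (chr1:41131324), at 9.85 and 49.2. The remaining 8 stood between 4.04 and 9 in library 1 and between 31 and 41.9 in library 2. All 15 of these peaks were lower, in both libraries, than the median level of 76.1.

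Peaks nested at 1 start bear on how a gene is read. Of 13179 marked starts, 12150 carried 1 peak, 997 carried 2 and 32 carried 3. Among peaks 2-fold higher in library 1, 213 of 596 (35.7%) had another peak at the same start, as had 159 of 477 (33.3%) of those higher in library 2, against 927 of 8833 (10.5%) of peaks under 2-fold. There were 983 genes with more than 1 peak, and in 495 of them M differed by 1 or more between peaks. In 17 genes peaks were 2-fold higher in opposite libraries. FST, the activin antagonist follistatin (chr5:52776264), had a peak at 86.8 in library 1 and 22.9 in library 2 beside one at 24 and 49. TJP1, the tight junction scaffold ZO-1 (chr15:30114706), had 29.9 and 99.7 beside 64 and 32. CYR61, a matricellular immediate early gene (chr1:86046444), had 3 peaks, at 70.8 and 27, 64.7 and 55.9, and 10.7 and 32.1. SGK1, a serum- and glucocorticoid-induced kinase with more RNA after IL-13 (chr6:134496034), had a common peak at 66.5 and 48 and a library 2 peak at 15.6 and 62.9. Each gene below is represented by its highest peak; read that way, a 2-fold higher level was found in library 1 for 535 of 11328 genes (4.72%) and in library 2 for 385 (3.4%).

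H3K4me3 was found at few genes without RNA and at nearly all genes of high RNA. RNA is given as RPKM, reads normalized for transcript length and library size, in the higher of the 2 libraries at 6 hr. A peak was found at 1.81% of 4094 genes listed at 0, 7.07% of 2717 genes under 0.1 RPKM and 26.1% of 3302 genes from 0.1 to 1. The share was 70.1% of 5296 genes from 1 to 10, 92% of 5705 from 10 to 100 and 95.4% of 796 genes of 100 or more, against 49.5% of all 21910 genes of at least 300 bp. Exact 95% binomial intervals for the last 3 classes, which treat genes as independent draws, were 68.8 to 71.3%, 91.3 to 92.7% and 93.6 to 96.7%. Median levels of marked genes, from the lowest class to the highest, were 76.4, 60.9, 58.9, 68.4, 90.8 and 133. Across the 10846 marked genes the Spearman correlation of level with RPKM was 0.39, which is across genes of the same libraries and carries no p.

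**Figure D2:**
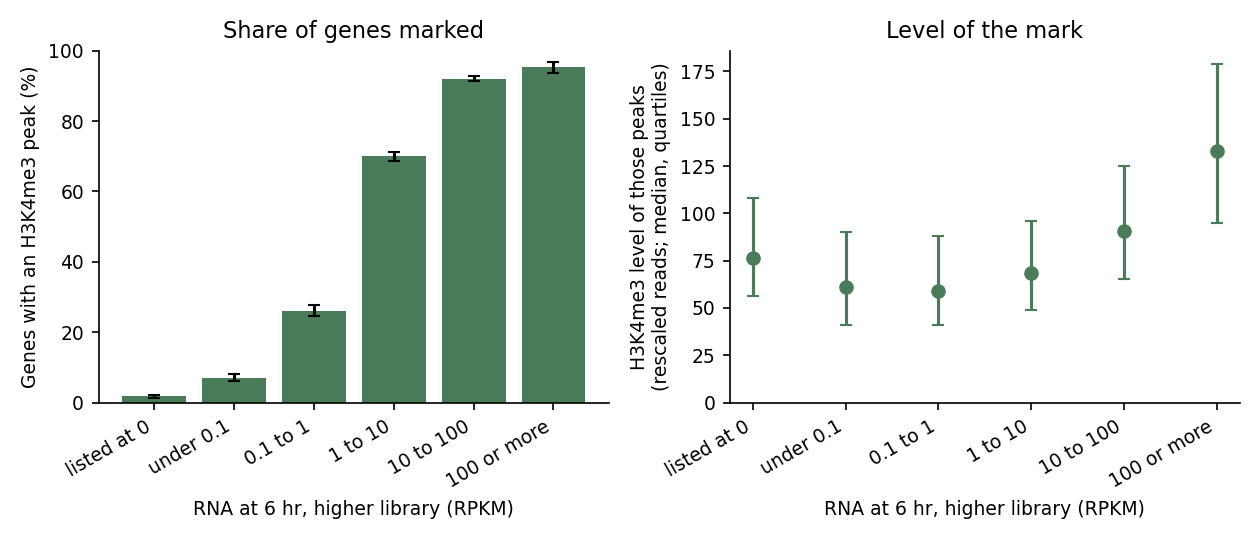
Left, bars give the percentage of genes with an H3K4me3 peak in each class of RNA at 6 hr, with exact 95% binomial intervals; right, points give the median level of those peaks with quartiles. The share rises from 1.81% of genes listed at 0 to 95.4% at 100 RPKM or more, while the median level is 76.4 at genes listed at 0, lowest (58.9) between 0.1 and 1 RPKM and highest (133) in the top class.

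Among the 796 genes of 100 RPKM or more, 37 had no peak of level 30, and 20 of these were not listed at any level. They included keratins of stratified epithelium. KRT17 had 1352 RPKM untreated and 1224 with IL-13, but H3K4me3 levels of 24.1 and 7.01 and an H3K27Ac level of 98.7. KRT6A, a keratin of activated keratinocytes, had 565 and 666 RPKM, H3K4me3 levels of 29.8 and 24, and an H3K27Ac level of 450. KRT14, the partner of KRT5 in basal cells, had 291 and 258 RPKM, H3K4me3 levels of 14.8 and 9, and an H3K27Ac level of 166. FGFBP1, with the CpG-poor promoter printed above, had 548 and 405 RPKM and H3K4me3 levels of 26.3 and 15.8, while H3K9Ac and H3K27Ac both reached 187. KRT5 differed from these keratins, with 1729 and 1528 RPKM and H3K4me3 levels of 261 and 168. The levels of different marks come from tables rescaled separately and are not compared with each other. KRT6A, KRT6B, KRT6C, KRT14 and KRT17 have near-identical copies in the genome, as do EIF3C and EIF3CL, which were not listed, so their reads may be split or lost and these values are uncertain.

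In the other direction, 266 genes under 0.1 RPKM carried a peak. For 174 of them (65.4%) the same peak was also listed for a gene of at least 1 RPKM, and for 92 (34.6%) it was not. FOXH1, a SMAD partner in early development, had levels of 148 and 190 with at most 0.0763 RPKM. SLURP1, a secreted protein of differentiating squamous cells, had 90.8 and 131 and was listed at 0 RPKM in both libraries. ZEB1, a repressor of the epithelial state (chr10:31608101), had 67.4 and 109 with at most 0.0531 RPKM, and its promoter region also serves an antisense gene, which the mark cannot separate from it.

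Genes of the enzymes that act on H3K4 carried the mark about as other genes with RNA did. Of 23 genes of the H3K4 methyltransferase complexes 21 had a peak, all of them among the 21 with at least 1 RPKM, beside 49.5% of all genes and 82.4% of genes of 1 RPKM or more. They stood at a median level of 82.7 and a median M of -0.01, beside 82.1 and 0.10 over all marked genes. WDR5, a core subunit of all SET1 and MLL complexes, stood at 158 and 211, MLL2 at 165 and 182, and RBBP5, another core subunit, at 141 and 85.9. DPY30, a small core subunit, at 67.4 and 33, and MEN1, which encodes menin, at 34.3 and 16, were 2-fold higher in library 1. All 8 genes of H3K4 demethylases had a peak. KDM5B, which removes the mark from promoters, stood at 97 and 126, KDM1A, which acts on mono- and dimethylated lysine 4 but not on the trimethylated form, at 108 and 114, and KDM2B, a CpG-binding demethylase, at 31.6 and 9.99. Among 19 genes of H3K4me3 readers 16 had a peak, and 2 of the ING family were past 2-fold in opposite directions, ING3 at 71 and 25.1 and ING2 at 69.1 and 185. Past 2-fold in library 1 and library 2 were 2 and 0 of 21 marked methyltransferase complex genes. The counts were 1 and 0 of 8 demethylase genes and 1 and 1 of 16 reader genes, beside 4.72% and 3.4% of all genes. The RNA of WDR5 (97.4 and 97.5 RPKM), DPY30 (42.8 and 43.5) and KDM5B (21.3 and 18.9) was close in the untreated and IL-13 libraries.

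Marker genes fitted an epithelial line with both basal squamous and simple epithelial keratins. Of 21 basal squamous genes 17 had a peak, at a median level of 128. EGFR stood at 779 and 901, KRT5 at 261 and 168, CAV1 at 217 and 184, and the integrin ITGB4 of the hemidesmosome at 193 and 156. TP63, the master regulator of stratified epithelium, stood at 184 and 89 and the ubiquitin ligase TRIM29 at 99 and 46.9, both 2-fold higher in library 1, as was the DST peak named above, while BCL11B, at 25.8 and 76.1, was 2-fold higher in library 2. Those are 3 and 1 of 17 marked members, beside 4.72% and 3.4% of all genes. Among 46 genes of squamous differentiation, by contrast, 11 had a peak although 34 had at least 1 RPKM, and 22 had an H3K27Ac peak. Over all genes the share with an H3K4me3 peak was 49.5%, and it was 82.4% at 1 RPKM or more. This list includes KRT6A, KRT6B, KRT6C and KRT17, whose values are uncertain because of near-identical copies. KLF4, a differentiation factor, stood at 98.7 and 131, the desmosomal cadherin DSC2 at 64.9 and 39.9, and ZNF750, a target of p63, at 31.6 and 8. KRT18 and KRT8, which share a peak at 81 and 113, KRT19 at 137 and 116, KRT7 at 122 and 83 and EPCAM at 97.3 and 145 were marked among 6 of 25 simple and columnar genes. Markers of leukocytes and endothelium had 1 peak in 27 genes (CD8A, at 35.8 and 20, with at most 0.181 RPKM), fibroblast and muscle markers 2 of 20 (ACTA2 and TWIST2), and brain genes 3 of 28. PTPRC, PECAM1, VWF, COL1A2 and GFAP, which define leukocytes, endothelium, fibroblasts and glia, had no peak of level 30.

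Housekeeping genes were marked in 28 of 28 cases at a median level of 142. SDHA stood at 406 and 270, YWHAZ at 240 and 346, GAPDH at 210 and 240 and TFRC at 232 and 229. B2M (310 and 125), EMC7 (166 and 73.8) and PGK1 (66.7 and 22) were 2-fold higher in library 1, although their RNA differed little, with 927 and 948 RPKM for B2M and 167 and 159 for PGK1 untreated and with IL-13. A 2-fold difference between these libraries was therefore also seen at some constitutively active promoters. Those are 3 and 0 of 28 marked members in library 1 and library 2, beside 4.72% and 3.4% of all genes. Cell cycle genes were marked in 38 of 40 cases, at a median level of 111, with BUB1 of the spindle checkpoint at 98.4 and 46.5 the only member past 2-fold. Of 26 cholesterol synthesis genes 24 were marked. The enzymes IDI1 (106 and 48.8), MSMO1 (65.6 and 28) and NSDHL (67.6 and 26.4) were higher in library 1, and the regulators SREBF1 (59.7 and 130) and SCAP (43.6 and 98) higher in library 2. Past 2-fold in library 1 and library 2 were 1 and 0 of 38 cell cycle genes and 3 and 2 of 24 cholesterol genes. Over all genes the shares were 4.72% and 3.4%.

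Developmental regulators were marked less often than the housekeeping, cell cycle and cholesterol synthesis genes. Of 39 HOX genes 23 had a peak. HOXC13 stood at 172 and 154, HOXA5 at 131 and 144 and HOXA6 at 143 and 132, while HOXA13 (40.1 and 83) and HOXC9 (37.7 and 75.8) were 2-fold higher in library 2. Of 56 transcription factors of other lineages 12 had a peak, at a median level of 49.2; GATA2 stood at 93.1 and 153, RUNX3 at 59.7 and 107 and OTX1 at 69.1 and 48.8. EN2 was the member past 2-fold. Immediate early genes were marked in 28 of 33 cases, led by MYC at 322 and 331 and KLF10 at 224 and 235. EGR2 (9.82 and 34.9), DUSP1 (10.6 and 30.9) and EGR1 (23.2 and 52.9) were higher in library 2, and EGR3 (32.6 and 9.03) and CYR61 higher in library 1, so members of 1 family stood on opposite sides. Past 2-fold in library 1 and library 2 were 0 and 2 of 23 marked HOX genes. The counts were 0 and 1 of 12 factors of other lineages and 2 and 3 of 28 immediate early genes. Over all genes the shares were 4.72% and 3.4%.

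Genes of the IL-13 response had the lowest median M of the 20 lists, some of which held few marked genes. The next were -0.48 in 6 marked simple and columnar genes and -0.47 in 3 marked brain genes. Of 45 IL-13 responsive epithelial genes, chosen with earlier results of these data known, 17 had a peak. Their median M was -0.58, beside 0.10 for all 11328 marked genes, and 12 of the 17 lay below 0, beside 42% of all. HAS2, a hyaluronan synthase (76.1 and 168), HS3ST1, a heparan sulfate sulfotransferase (14.9 and 55.1), and ANO1, a calcium-activated chloride channel (14 and 31.9), were 2-fold higher in library 2, and none was 2-fold higher in library 1. Those are 0 and 3 of 17 marked members in library 1 and library 2, beside 4.72% and 3.4% of all genes. The receptor subunits IL4R (126 and 182) and IL13RA1 (36.9 and 57.1) were also higher in library 2, by under 2-fold. The wider list of 33 receptor and JAK-STAT genes had 28 marked members with a median M of 0.01, JAK1 at 100 and 136, JAK2 at 100 and 74, and STAT6, the main transducer of IL-13, at 105 and 59.1, and SOCS7 (36.6 and 76.9) as its single member past 2-fold. In the other inflammatory lists the members past 2-fold, beside 4.72% and 3.4% of all genes, were HLA-C (23.3 and 47.2) among 26 marked interferon-stimulated genes, NFKB1 (31.8 and 68.1) among 13 marked NF-kB genes, and none among 4 marked chemokine genes, which were CXCL1 (95 and 75.1), CXCL2 (73.3 and 37.9), CXCL3 (34.2 and 34.9) and CXCL16 (86.2 and 61.8).

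RNA at 6 hr was at least 2-fold higher with IL-13 on the log2(RPKM + 0.1) scale in 64 of 11797 genes of at least 1 RPKM (0.543%) and lower in 13 (0.11%). A peak was found at 35 of the 64 (54.7%, exact 95% binomial interval 41.7 to 67.2%), against 82.4% of the 11797. That interval treats genes as independent draws and does not cover variation between cultures. Within 1 to 10 RPKM the shares were 15 of 37 (40.5%) and 70.1%, and within 10 to 100 RPKM 19 of 26 (73.1%) and 92%. Of the 29 without a peak, 8 were listed under the level of 30 and 18 had a peak of H3K27Ac or H3K9Ac. Of all 2079 genes of 1 RPKM or more without a peak, 1018 were listed under that level and 1128 had such an acetylation peak.

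Several genes known from the epithelial response to IL-13 were among those without H3K4me3. GCNT3, a mucin-type glycosyltransferase, had 0.072 RPKM untreated and 2.87 with IL-13, and no H3K4me3 peak at any level. The protease inhibitors SERPINB4 (0.413 and 7.8 RPKM) and SERPINB3 (1.2 and 17.8), which are near-identical copies and may share reads, MMP7 (1.09 and 12.2), the cadherin CDH26 (0.312 and 3.63) and CCL26 (6.27 and 54.8) were likewise not listed for H3K4me3. Each of these 6 had an H3K27Ac peak of level 30 or more in the higher library of that mark, up to 238 at CCL26 and 212 at MMP7. Their H3K27Ac M ran from -4.03 at GCNT3 to -2.07 at CCL26, so all 6 were more than 2-fold lower in the other H3K27Ac library. SERPINB3 and SERPINB4 held 3 and 2 CpG in the 300 bases around their starts, close to the 4 of CCL26 and MMP7 shown above. LURAP1L, which also had more RNA with IL-13, held 5 and did carry an H3K4me3 peak, at 59.5 and 106. CAPN14, a calpain of esophageal epithelium, had at most 0.17 RPKM and no peak in any mark.

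Most genes with higher RNA that carried H3K4me3 had the higher level in library 2. Of the 35, 24 (68.6%) had M below 0, beside 42% of the 9718 marked genes of 1 RPKM or more, and their median M was -0.33 beside 0.09. Of the 35, 0 had a 2-fold higher level in library 1 and 6 (17.1%) had one in library 2, against 4.74% and 3.1% of all. When genes shorter than 300 bp were kept, 55 genes had a peak, the median M was -0.05 and 50.9% lay below 0. Several of these genes are also in the IL-13 list, so the values repeat. HS3ST1 had 1.92 and 13.4 RPKM and H3K4me3 levels of 14.9 in library 1 and 55.1 in library 2. HAS2 had 7.77 and 43 RPKM and levels of 76.1 and 168. The transcription factor BCL11B had 1.4 and 3.14 RPKM and levels of 25.8 and 76.1, and the hyaluronan-binding KIAA1199 had 3.74 and 10.5 RPKM and levels of 23.3 and 62.2. LURAP1L, with 0.36 and 4.67 RPKM, had 59.5 and 106, and SECTM1, a secreted transmembrane protein, had 81 and 155 with 9.33 and 44.3 RPKM.

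The feedback inhibitors were among the genes with smaller differences. SOCS1 had 31.6 and 45.9 with 1.57 and 6.87 RPKM, and CISH had 37.5 and 61 with 5.04 and 14.5 RPKM. HAS3 stood at 46.9 and 70 and the metalloproteinase ADAMTS15 at 19 and 35. The pattern was not shared by all: SOX2, a factor of basal esophageal cells, stood at 71.8 and 51.8 with 16.4 and 37.7 RPKM, CXCL2 at 73.3 and 37.9, the kinase gene TNIK at 87.4 and 75.1, and the leukemia inhibitory factor receptor LIFR at 63.1 and 65.8. Read-through genes such as PRR5-ARHGAP8 share their peak and reads with the genes they join. Of the 13 genes with lower RNA, 3 had a peak: DUSP10, a phosphatase of stress kinases (88.3 and 45.1), MALL (59.9 and 45.1) and LRRC24 (35.9 and 45.1).

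**Figure D3:**
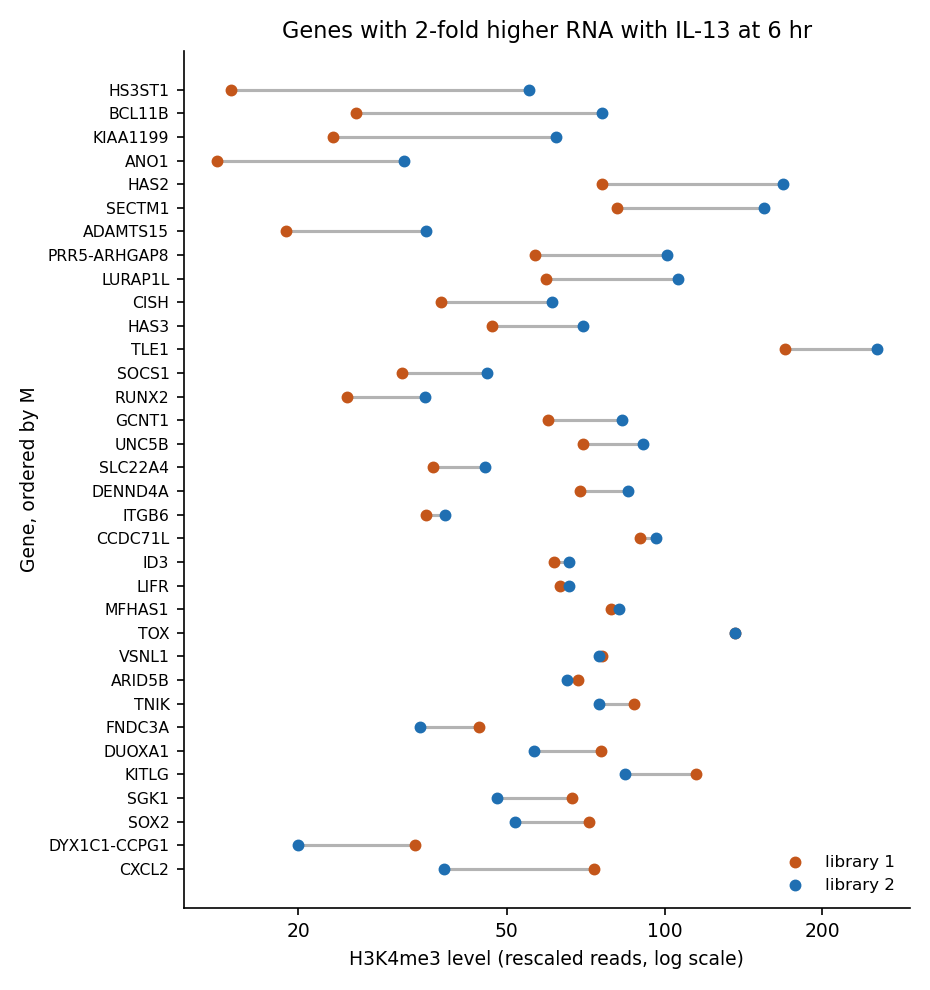
Orange and blue points give the H3K4me3 level in library 1 and library 2 (log axis, rescaled reads) for 34 of the 35 marked genes with at least 2-fold higher RNA after IL-13 at 6 hr, ordered by M. In 23 of the 34 the library 2 point lies to the right, from HS3ST1 at 14.9 and 55.1 down to the near-equal MFHAS1.

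Nearly every H3K4me3 start was acetylated as well. Of 13179 starts, 12854 (97.5%) had peaks of level 30 or more in both H3K9Ac and H3K27Ac, 205 in H3K9Ac only, 41 in H3K27Ac only and 79 in neither. Conversely, 1582 starts with both acetylations had no H3K4me3 peak of level 30 or more, beside the 12854 with all 3 marks. Starts with both had a median H3K4me3 level of 83.3. The 41 with H3K27Ac only had a median of 35.9, and the level was 2-fold higher in library 2 at 41.5% of them and in library 1 at 9.76%, against 3.16% and 4.76% of starts with both. Of the 79 with neither, 19% were higher in library 2 and 6.33% in library 1. Among starts with neither, ETV5, an ETS-family factor (chr3:185826901), stood at 44.3 and 72, LRIG1, a brake on EGF receptors (chr3:66550845), at 51.3 and 62.2, and the natriuretic peptide gene NPPC (chr2:232791038) at 15.7 and 53.1. These starts were also low in level, with a median of 35.9 in both sets.

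At genes that differed in H3K4me3 the acetylation ratios lay close to those of all genes. In 515 genes 2-fold higher in H3K4me3 library 1, the median M of H3K9Ac was 0.17 and that of H3K27Ac 0.13. In 331 genes 2-fold higher in library 2 both medians were 0.05, and in the remaining 10205 genes both were 0.08. The interquartile range of M was 0.77 over H3K4me3 peaks, 0.55 over H3K9Ac and 0.56 over H3K27Ac.

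The ratio between the H3K4me3 libraries moved with the base composition of the promoter. Over 8884 marked genes with a RefSeq promoter (85.2% of those looked up), M and GC content had a Spearman correlation of -0.21, and of -0.01 in both acetylation marks. In the eighth of genes of lowest GC content the median M was 0.23, with 7.1% of genes 2-fold higher in library 1 and 2.24% in library 2. In the eighth of highest GC content the median M was -0.10, with 2.79% and 5.67%. Among peaks of extreme M named above, NXT2 (44% GC, higher in library 1), EN2 (78%) and TPPP (83%, both higher in library 2) follow this order. ARHGEF26 (46%, higher in library 2) does not, nor does PRMT3 (75%, higher in library 1), whose RefSeq start was not the same within 100 bases. Centring M within the eighths changed the counts of 2-fold genes from 426 and 299 to 307 and 386, so that the share in library 1 went from 58.8% to 44.3%. The 28 genes with higher RNA and a promoter sequence had a median of 64.7% GC, beside 65.7% for all. Before centring 19 of them had M below 0, beside 3782 of all 8884. After centring the counts were 21 (75%) and 4404 (49.6%), so the share rose in both sets. The correlation was -0.25 in the 4526 genes whose RefSeq start was the same as that of the peak by distance to the gene's far end. GC content could not be compared with unmarked genes, because the table gave a promoter for 72% of them. Whether library preparation or sequencing differed between the H3K4me3 libraries was not tested.

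**Figure D4:**
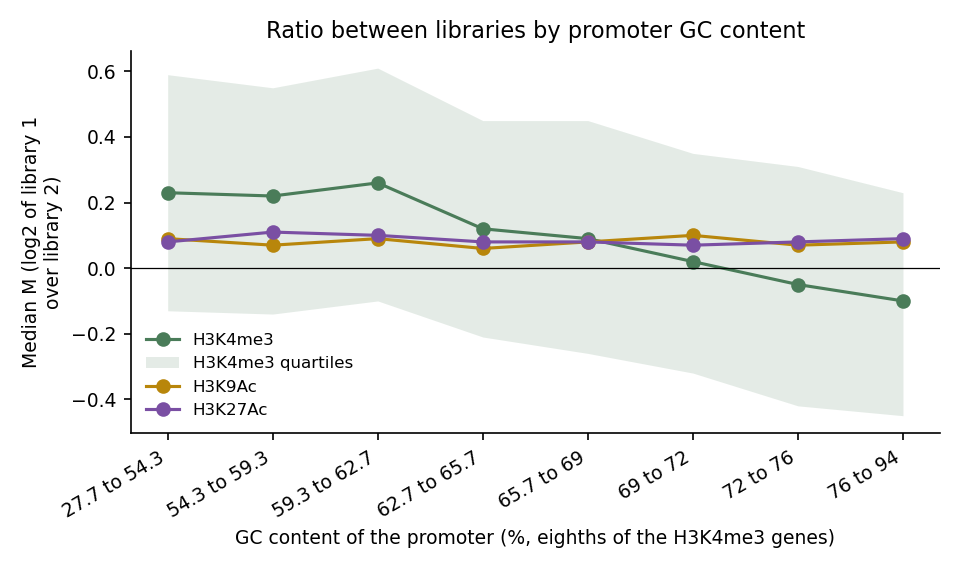
Points give the median M, the log2 ratio of library 1 over library 2, in eighths of promoter GC content for H3K4me3, H3K9Ac and H3K27Ac, and the band gives the H3K4me3 quartiles. The H3K4me3 median falls from 0.23 in the lowest eighth to -0.10 in the highest, while both acetylation marks stay between 0.06 and 0.11.

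The highest H3K4me3 levels came from a short stretch of chromosome 7 around EGFR. Of the 15 peaks of highest level, 7 lay there. EGFR, the epidermal growth factor receptor (chr7:55086725), stood at 779 and 901 and ranked first in all 3 marks. SEC61G, a subunit of the protein translocon (chr7:54826939), stood at 620 and 558, the start shared by the chaperonin CCT6A and the serine enzyme PSPH (chr7:56119268 to 56119378) at 680 and 425, and the mitochondrial CHCHD2 (chr7:56174187) at 605 and 377. LANCL2 stood at 584 and 501, VOPP1 at 514 and 570, and the mitochondrial ribosomal gene MRPS17 at 483 and 412. From SEC61G to CHCHD2, over 1.35 Mb, the 10 genes with a peak had a median level of 594, from 147 at GBAS to 901, which is 7.24 times the median of all marked genes. The other 546 marked genes of chromosome 7 had a median of 94 and at most 315. In the same stretch SEPT14 (at most 0.23 RPKM), ZNF713 (at most 1.67) and FKBP9L (11.4 and 11.7) had no peak of level 30, and VSTM2A, just before SEC61G, stood at 17.3 and 37.9.

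Medians of all 3 marks and of RNA were raised together in a window that covers that stretch except SEC61G. In the 2.5 Mb window from 55.0 to 57.5 Mb the median H3K4me3 level was 526, or 6.92 times that of all peaks. The ratios were 7.29 for H3K9Ac, 4.13 for H3K27Ac and 13.4 for RNA, the last over 12 genes of at least 1 RPKM. The H3K4me3 median was the highest of 621 windows with at least 6 peaks, and the second highest was 189. The window rule was chosen after these values were seen. Over chromosome 20 the median H3K4me3 level was 138 (1.82 times all peaks), with ratios of 1.8 for H3K9Ac, 1.92 for H3K27Ac and 2.06 for RNA, whereas the X chromosome stood at 54.6 (0.717 times). A ChIP-seq level scales with the number of copies of a region, and copy number was not tested. M is a ratio within a region, and its median was 0.07 on chromosome 20, the same as over all peaks.

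**Figure D5:**
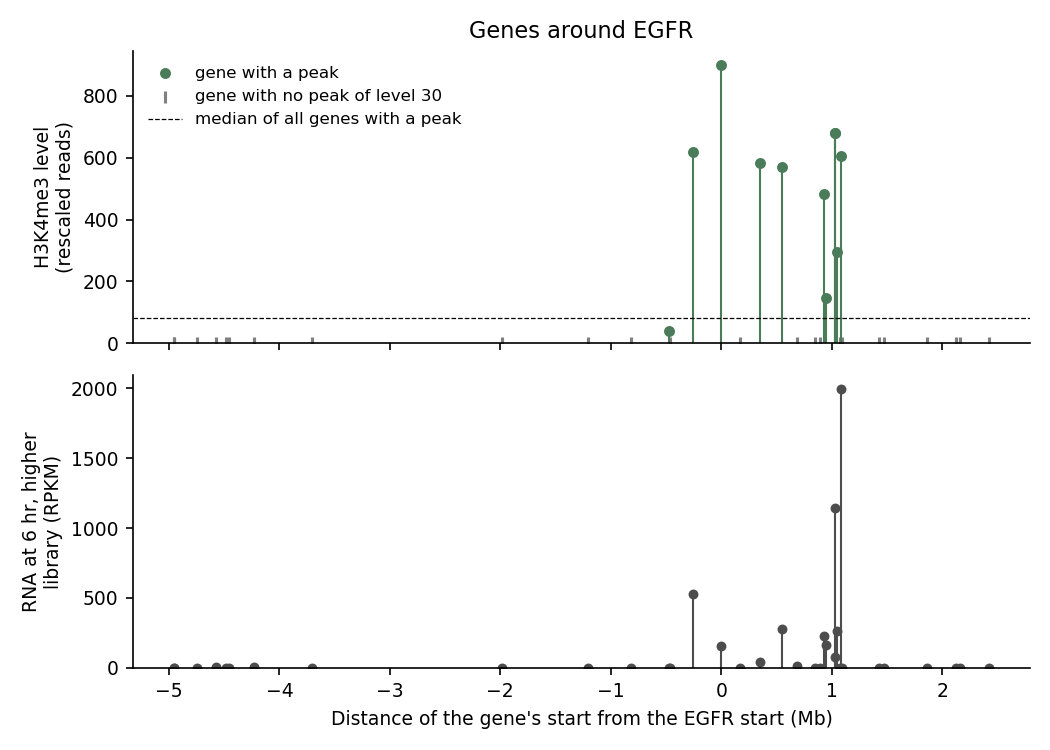
Top, H3K4me3 level in the higher library for genes with a peak within 5 Mb of EGFR, by distance of their start from the EGFR start in Mb, with ticks at 0 for genes without a peak of level 30 and a dashed line at the median of all marked genes (82.1); bottom, RPKM of every gene in the higher library at 6 hr. Levels of 147 to 901 are confined, within the plotted range, to the 10 genes between SEC61G and CHCHD2.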

How the data were processed

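H3K4me3, H3K9Ac and H3K27Ac were profiled by ChIP-seq in 1 untreated and 1 IL-13-treated TE-7 library each, and RNA by sequencing. The submitters' processing notes name Bowtie 1.0.0, MACS2 2.0.10.20130712, TopHat2 2.0.9, DESeq and the build hg19. Per the file headers, the authors deposited for each peak and transcription start M and A on a log2 scale after rescaling and a −log10 p-value. In all, 6 columns of the mark tables that could not be matched to a sample were not used. Of library 2 levels under 20, 89.6% lay within 0.05 of a whole number, against 15.7% for library 1, so library 1 had been brought to the scale of library 2. RNA values are RPKM per the file headers, and the authors' p-value columns and log2 ratios for RNA were not used.

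Levels were computed as 2 to the power A ± M/2. A peak with identical values at starts within 20 kb was counted once, and a gene was represented by its highest peak. RNA ratios used log2(RPKM + 0.1), genes of at least 300 bp and at least 1 RPKM in the higher library. With 1 library a group no test was made. Poisson intervals cover counting error only. Binomial intervals treat genes as independent draws, although genes can share a peak, and do not cover variation between cultures. Promoter sequences came from RefSeq (GRCh38.p14) without chromosome 8, with no conversion of coordinates. The planned comparison of promoters with and without a peak is void, since 72% of unmarked genes had a sequence. Scripts were tested on simulated data. The software was SciPy 1.17.1, pandas 2.3.3, NumPy 2.4.6 and matplotlib 3.10.9 under Python 3.11.15.

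Named genes were drawn from the 15 peaks of highest and lowest M, those of highest level, for each list the 4 of highest level and members past 2-fold, the largest and smallest RNA ratios with a peak, and a fixed set of IL-13 genes, and the text gives a part of these; others, such as the most abundant genes without a peak, were chosen after their values were seen. Members and lists were chosen with earlier results of these data known. A few items are not reported here. RNA at 2 and 24 hr was not used here.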

Additional observations from a re-analysis of the deposited data

How the results depend on the processing

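Counts of peaks 2-fold higher in library 1 and library 2, 596 and 477 as reported, were 1098 and 974 at a minimum level of 10 and 103 and 50 at 100. They were 132 and 106 at 3-fold, and 156 and 100 when a deposited −log10 p of at least 5 was also asked for. Counting every listed start gave 912 in library 1 and 664 in library 2. Centring M on its median gave 500 and 584. Leaving out peaks beside a higher peak that differed by under 2-fold, an alternative chosen after seeing the data, gave 433 and 363. The share of genes marked was 82.4% at 1 RPKM or more, 91% with no minimum level and 79.3% at 0.5 RPKM or more. Below 1 RPKM it was 11.2%, and 20.3% with no minimum level, while below 0.5 RPKM it was 8.24%. The share of genes with higher RNA whose M lay below 0 was 68.6%, and from 50.9% (genes of any length) to 75% (M centred within eighths of GC content, also chosen after seeing the data). That centring also brought the share of all marked genes with a promoter sequence to 49.6%. Of the 3 marked genes with lower RNA 33.3% lay below 0, and 0 of the 2 with a promoter sequence after that centring. H3K4me3 starts with H3K9Ac made up 99.1%, and 98.9% at a minimum level of 10. Of 54 alternative values in all, 39 stayed within 1.5 times of the count, or within the interval of the share, and 15 moved further. Where few genes were marked the interval is wide, so staying within it says little. For lower RNA, 33.3% of 3 genes and 60% of 5 with no minimum level counted as staying. The fall from 68.6% to 50.9% and the change to 500 and 584, which reversed the order of the libraries, counted as staying too. The cause of these movements was not tested, beyond the thresholds themselves changing how many peaks or genes enter. No paired analysis was possible because each group held 1 library. Depth limits low peaks most: 29 reads carry a counting interval of 19.4 to 41.6.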
